A study of Mus musculus with 16 samples.

Results

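The genes described here mark Kupffer cells, the resident macrophages of the liver, and macrophages and other myeloid cells in general. Of 37 gene symbols named for this set, 36 were found on the array through the probe annotation, each by 1 probe set, among 19935 genes measured. Slc11a1 was not paired with a probe set in the annotation used and is not analysed here. Of the 36, 11 are markers of resident Kupffer cells (Adgre1, Clec4f, Cd5l, Vsig4, Timd4, Marco, Cd163, Folr2, C1qa, C1qb and C1qc) and 25 are genes shared by many myeloid cells or leukocytes. The rule that names the set uses no measured value, but the members were chosen with earlier results of these data known. Their shares beside those of all genes are therefore given as descriptions. In 33 of the 36 the mean log2 intensity was above 2.79, the level under which the dimmest 40% of genes lay. The 3 below it were Itgam (2.70), Ccr2 (1.98) and Tlr7 (2.09).

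Kupffer cells sit inside the liver sinusoids and clear bacteria, worn red cells, lipoproteins and immune complexes from portal blood. They take up these loads through scavenger, complement and Fc receptors and digest them in phagosomes and lysosomes. Their survival depends on signalling through the receptor encoded by Csf1r, and the transcription factor PU.1, the product of Spi1, drives much of the gene programme of myeloid cells. The Ppard gene encodes PPARβ/δ, a fatty acid receptor of the nuclear receptor family that is present in hepatocytes and in macrophages, where it is known in mice as a regulator of alternative activation.

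RNA of whole liver pieces was measured on Affymetrix arrays, 1 array per mouse. All 16 mice were males of a mixed Sv129/C57Bl/6 background. They comprised 4 PPARβ/δ knockout mice that were fed, 4 wild-type mice that were fed, 3 knockout mice fasted for 24 h and 5 wild-type mice fasted for 24 h. The labels do not give the age of the mice, the part of Ppard deleted or the cells in which it was deleted, and the arrays came from intact tissue, in which more cells of a type and more RNA per cell cannot be told apart. Values are log2 of the intensities deposited by the authors. Differences are on the same scale, with the standard error of a limma fit to all arrays, and a gene was called changed at a Benjamini-Hochberg adjusted p under 0.05 over all genes.

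The tissue was liver by its markers, with albumin (Alb) at a mean of 12.3 in each group. Ppard lay at 4.45 to 5.00 in knockout fed mice and 4.78 to 5.50 in wild-type fed mice, and at 4.36 to 4.58 in knockout fasted mice and 4.40 to 4.67 in wild-type fasted mice. Since the deleted part is not given, these values check nothing about the genotype. Knockout fed mice 1 and 4, and less so mouse 3, were high in acute phase genes, the blood proteins that hepatocytes release in inflammation. The mean of 18 such genes, each centred on its own mean over all arrays, was 0.99, -0.29, 0.57 and 1.93 in knockout fed mice 1 to 4, against -0.36 to -0.07 in wild-type fed mice. Counts of groups that did not overlap and orders of group means use all mice. The main counts of genes that passed in comparisons with knockout fed mice are also given without mice 1 and 4, the highest of the group. This keeps mouse 3, which is above the wild-type fed range too.

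The first comparison set livers of fed knockout mice against those of fed wild-type mice. Kupffer cell and macrophage genes were higher in the knockout: 10 of the 36 rose (27.8%), beside 0.451% of all genes. By role they were Clec4f, Cd5l, Folr2 and C1qb among the resident markers, and Mpeg1, Cybb, Ctsc, Laptm5, Fcgr1 and Cd53 among the general genes. The sizes ran from 0.63 for Ctsc, the lysosomal protease cathepsin C, to 1.50 for Mpeg1, which encodes the pore-forming protein perforin-2 of phagocytes. None of the 36 fell, beside 0.226% of all genes, and at an unadjusted p under 0.05 in the limma fit 25 were higher and 0 lower. The difference was positive for 34 of them, with a median of 0.49, against a median of 0.01 over all genes. In 20 of 36 (55.6%) every knockout fed mouse lay above every wild-type fed mouse, as did 3.53% of all genes.

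**Figure D1:**
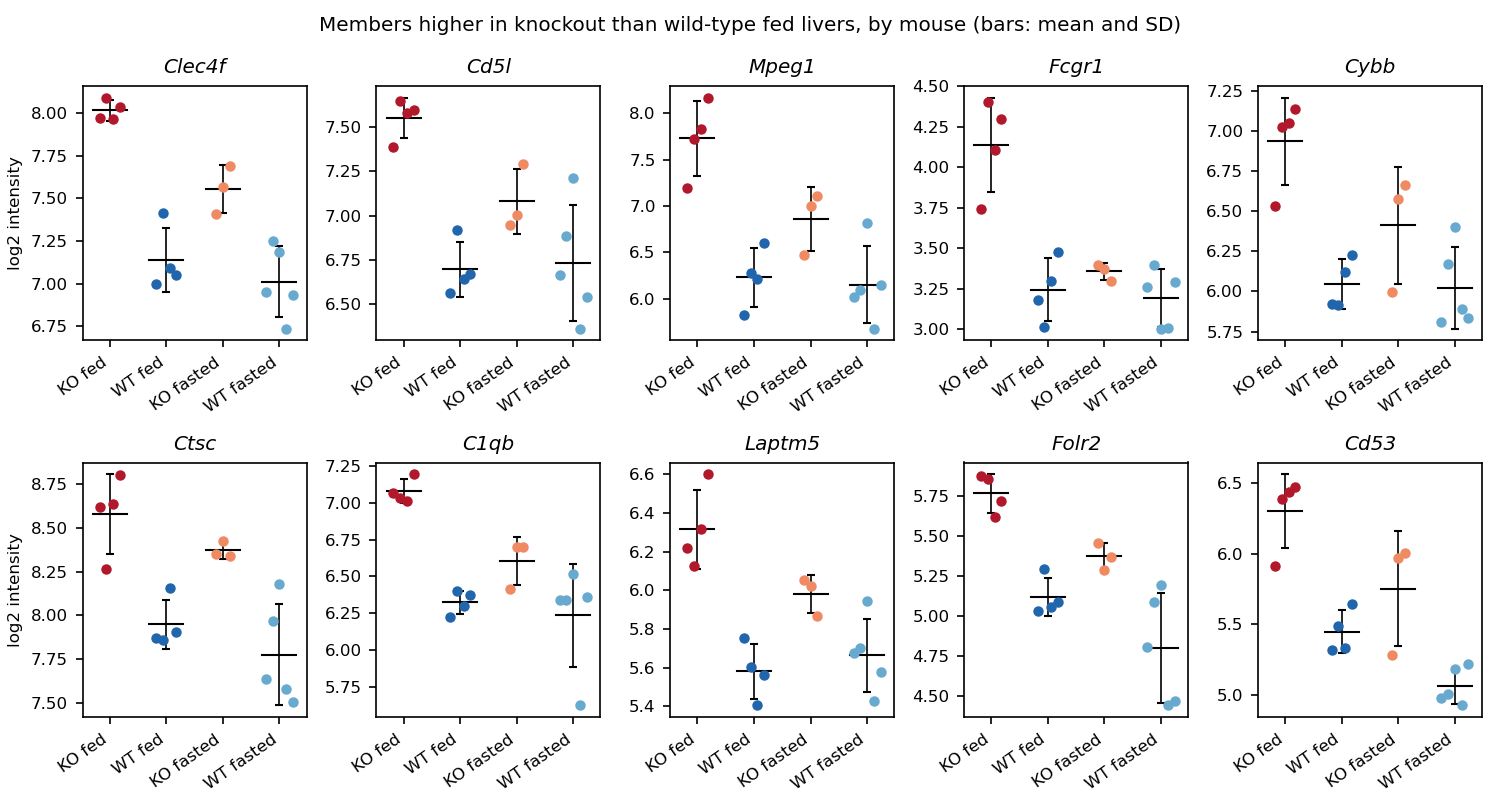
Log2 intensity (y axis) of the 10 genes that rose in knockout fed livers, 1 point per mouse, with horizontal lines at the group mean and bars of 1 SD. In each panel the 4 knockout fed mice lie above the 4 wild-type fed mice, and the 3 knockout fasted mice lie lower than the knockout fed mean.

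Of the 6 genes most tied to Kupffer cell identity, 3 rose and all 6 had groups that did not overlap in fed mice. Clec4f is a C-type lectin that, in mouse, is made by Kupffer cells. Its log2 intensity was 7.97, 8.09, 7.96 and 8.04 in knockout fed mice, against 7.00, 7.41, 7.10 and 7.05 in wild-type fed mice. The knockout mice lay close together and clear of the wild-type range, a difference of 0.88 ± 0.11 (1.84-fold, adjusted p = 0.00203). Cd5l encodes a scavenger protein that tissue macrophages secrete. It gave 7.39, 7.65, 7.58 and 7.60 in knockout fed mice, against 6.56, 6.92, 6.64 and 6.67 in wild-type fed mice, a difference of 0.85 ± 0.15 (adjusted p = 0.0101). Folr2, the folate receptor of tissue macrophages, gave 5.87, 5.86, 5.62 and 5.72 in knockout fed mice, against 5.03, 5.30, 5.06 and 5.09 in wild-type fed mice (0.65 ± 0.14, adjusted p = 0.0454). All 3 genes were higher in every knockout fed mouse than in any wild-type fed mouse.

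The other 3 identity genes had groups apart but did not pass. Adgre1, which encodes the classical surface antigen used to stain mouse macrophages, gave 6.11, 5.95, 6.11 and 6.04 in knockout fed mice, against 5.65, 5.61, 5.47 and 5.52 in wild-type fed mice (0.49 ± 0.13, adjusted p = 0.0996). Vsig4 is a complement receptor with which Kupffer cells catch particles from flowing blood. It gave 7.55, 7.80, 7.70 and 7.78 in knockout fed mice, against 6.99, 7.44, 7.10 and 7.29 in wild-type fed mice (0.50 ± 0.15, adjusted p = 0.144). Timd4, a receptor for dying cells found on long-lived resident macrophages, gave 5.56, 5.43, 5.89 and 5.57 in knockout fed mice, against 5.39, 5.28, 5.42 and 5.30 in wild-type fed mice. Its difference of 0.27 ± 0.14 was the smallest among the 11 resident markers (adjusted p = 0.433).

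The proximal promoters of 6 of the genes that rose are shown because the group shares a myeloid origin and PU.1 binds purine-rich stretches around a GGAA core in myeloid genes. They are RefSeq sequences on GRCm38.p6, from 250 bases before to 50 bases after the annotated start, read in the direction of the gene. Capitals mark a match to AGGAAGT or to its reverse strand, ACTTCCT. The windows are chr6:83656067-83656366 (minus strand) for Clec4f, chr19:12460520-12460819 (plus strand) for Mpeg1, chr3:96293920-96294219 (minus strand) for Fcgr1, chr3:106790100-106790399 (minus strand) for Cd53, chr7:88277835-88278134 (plus strand) for Ctsc and chr4:136886151-136886450 (minus strand) for C1qb.
Clec4f: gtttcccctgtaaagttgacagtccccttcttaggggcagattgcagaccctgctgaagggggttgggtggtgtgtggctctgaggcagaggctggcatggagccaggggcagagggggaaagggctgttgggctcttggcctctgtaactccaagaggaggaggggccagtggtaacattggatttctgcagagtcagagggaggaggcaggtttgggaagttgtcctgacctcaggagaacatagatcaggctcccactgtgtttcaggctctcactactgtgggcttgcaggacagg
Mpeg1: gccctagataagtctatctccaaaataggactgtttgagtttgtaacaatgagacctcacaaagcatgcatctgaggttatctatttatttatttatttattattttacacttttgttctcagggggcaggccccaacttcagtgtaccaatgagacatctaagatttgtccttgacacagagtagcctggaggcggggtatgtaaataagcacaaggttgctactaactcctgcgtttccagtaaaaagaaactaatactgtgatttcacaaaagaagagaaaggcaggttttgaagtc
Fcgr1: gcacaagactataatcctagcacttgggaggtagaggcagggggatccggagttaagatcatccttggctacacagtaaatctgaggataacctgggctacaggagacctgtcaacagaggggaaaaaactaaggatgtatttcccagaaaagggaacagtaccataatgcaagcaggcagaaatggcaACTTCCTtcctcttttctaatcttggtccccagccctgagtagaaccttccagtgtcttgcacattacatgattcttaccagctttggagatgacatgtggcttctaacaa
Cd53: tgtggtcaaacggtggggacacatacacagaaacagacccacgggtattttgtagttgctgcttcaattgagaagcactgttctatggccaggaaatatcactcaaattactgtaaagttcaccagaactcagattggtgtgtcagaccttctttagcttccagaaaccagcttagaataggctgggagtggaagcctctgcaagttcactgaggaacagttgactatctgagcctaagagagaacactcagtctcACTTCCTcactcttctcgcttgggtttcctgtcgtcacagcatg
Ctsc: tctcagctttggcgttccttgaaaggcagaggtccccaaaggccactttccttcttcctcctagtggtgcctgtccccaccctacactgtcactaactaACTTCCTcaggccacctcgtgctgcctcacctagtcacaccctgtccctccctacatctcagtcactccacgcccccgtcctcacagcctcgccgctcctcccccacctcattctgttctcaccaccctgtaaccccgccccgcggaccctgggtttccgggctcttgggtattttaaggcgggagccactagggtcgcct
C1qb: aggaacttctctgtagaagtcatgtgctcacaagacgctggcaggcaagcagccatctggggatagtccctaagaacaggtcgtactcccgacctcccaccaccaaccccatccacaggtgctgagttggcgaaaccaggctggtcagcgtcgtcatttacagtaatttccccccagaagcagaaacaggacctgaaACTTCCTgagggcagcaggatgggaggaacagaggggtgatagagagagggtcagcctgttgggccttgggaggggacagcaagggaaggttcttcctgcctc

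Clec4f and Mpeg1 held no copy of these letters in their windows, and each of the other 4 held 1. Promoter sequences were matched for 28 of the 36 measured genes. AGGAAGT, on either strand, lay in 9 of these 28 and in 5 of the 10 genes that rose (C1qb, Cd53, Ctsc, Fcgr1 and Folr2), and in 10.7% of 27025 promoters of the same length. Of 4 further motifs searched on both strands, GAGGAA lay in 16 of 28 and in 31.3% of all promoters, and it can overlap AGGAAGT. The interferon-type motif of GAAA repeated after 2 bases lay in Aif1 and Cybb and in 3.99% of all promoters, and TTCNNNGAA, the form bound by STAT factors, in Ctsc and Fcgr1 and in 9.55%. A nuclear receptor motif, AGGTCA repeated after 1 base, lay in 0 of 28 and in 0.048% of all promoters. These matches describe letters in a window and were not tested as binding sites.

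The C1q genes encode the 3 chains of C1q, a subunit of the first complement component, and macrophages supply C1q to blood. All 3 had groups apart, and C1qb passed. It gave 7.07, 7.03, 7.01 and 7.19 in knockout fed mice, against 6.22, 6.40, 6.30 and 6.37 in wild-type fed mice (0.75 ± 0.14, adjusted p = 0.0196). C1qa differed by 0.63 ± 0.16 (adjusted p = 0.0780) and C1qc by 0.67 ± 0.18 (adjusted p = 0.0950). The 3 chains thus lay at similar distances from wild-type, between 0.63 and 0.75.

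Of 5 scavenger receptor genes, none passed in fed mice in the limma fit, and 3 had an unadjusted p under 0.05. Cd68, a glycoprotein of macrophage lysosomes, gave 5.28, 5.45, 5.57 and 5.86 in knockout fed mice, against 4.62, 4.93, 4.71 and 4.97 in wild-type fed mice, with no overlap (0.73 ± 0.17, adjusted p = 0.0608). Marco, which binds bacteria, gave 3.22, 3.70, 2.82 and 3.11 in knockout fed mice, against 2.74, 2.87, 2.72 and 3.17 in wild-type fed mice, and the groups overlapped (0.34 ± 0.15, adjusted p = 0.362). Cd163, the receptor for haemoglobin bound to haptoglobin, differed by 0.56 ± 0.17 (adjusted p = 0.156). Msr1, a receptor for modified lipoproteins, differed by 0.24 ± 0.15 (adjusted p = 0.530). Mrc1, the mannose receptor, is also made by the sinusoidal endothelium. It was 1 of the 2 genes with a negative value, at -0.14 ± 0.11 (adjusted p = 0.616), the other being the low-affinity Fc receptor Fcgr3 at -0.03 ± 0.21 (adjusted p = 0.963).

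Genes of the phagosome, lysosome and oxidase gave 4 of the 10 rises out of 6 measured. Mpeg1 gave 7.20, 7.72, 7.83 and 8.17 in knockout fed mice, against 5.83, 6.28, 6.22 and 6.60 in wild-type fed mice. The lowest knockout mouse lay well above the highest wild-type mouse, and the difference of 1.50 ± 0.23 (2.83-fold) was the largest among genes that passed (adjusted p = 0.00544). Cybb encodes the catalytic subunit of the phagocyte NADPH oxidase. It gave 6.53, 7.03, 7.05 and 7.14 in knockout fed mice, against 5.92, 5.91, 6.12 and 6.23 in wild-type fed mice (0.89 ± 0.17, adjusted p = 0.0183). Its membrane partner Cyba differed by 0.42 ± 0.18 (adjusted p = 0.328), with overlapping groups. Laptm5, a lysosomal membrane protein of blood cells, gave 6.22, 6.13, 6.32 and 6.60 in knockout fed mice, against 5.75, 5.60, 5.41 and 5.56 in wild-type fed mice (0.73 ± 0.12, adjusted p = 0.00570). Ctsc gave 8.62, 8.26, 8.64 and 8.80 in knockout fed mice, against 7.87, 7.86, 8.16 and 7.91 in wild-type fed mice (0.63 ± 0.14, adjusted p = 0.0470). Each of these 4 genes had every knockout fed mouse above every wild-type fed mouse. Lyz2, the lysozyme of myeloid cells, differed by 0.03 ± 0.21 (adjusted p = 0.968), and its close copy Lyz1 could share probe signal with it.

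Among Fc receptors and their signalling adapters, 1 of 4 rose. Fcgr1, the high-affinity receptor for immunoglobulin G, gave 3.74, 4.40, 4.11 and 4.30 in knockout fed mice, against 3.18, 3.01, 3.30 and 3.48 in wild-type fed mice (0.90 ± 0.13, adjusted p = 0.00486). Knockout mouse 1 was the lowest of its group but still above the wild-type range. The adapters Fcer1g and Tyrobp differed by 0.42 ± 0.21 and 0.28 ± 0.16 (adjusted p = 0.398 and 0.492). Of 4 genes found across leukocytes, the tetraspanin Cd53 rose, at 5.91, 6.39, 6.43 and 6.47 in knockout fed mice, against 5.32, 5.49, 5.34 and 5.65 in wild-type fed mice (0.85 ± 0.15, adjusted p = 0.0135). Aif1, an actin-binding protein of macrophages, and Coro1a, a coronin of leukocytes, had groups apart without passing (0.48 ± 0.13 and 0.34 ± 0.09). Ptprc, the leukocyte common antigen, differed by 0.44 ± 0.20 with overlapping groups.

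Csf1r gave 7.10, 6.86, 7.22 and 7.09 in knockout fed mice, against 6.55, 6.55, 6.35 and 6.51 in wild-type fed mice, apart but short of the threshold (0.58 ± 0.13, adjusted p = 0.0538). Spi1 gave 3.56, 3.14, 3.47 and 3.92 in knockout fed mice, against 3.15, 3.25, 3.04 and 3.22 in wild-type fed mice, and knockout mouse 2 lay inside the wild-type range (0.36 ± 0.12, adjusted p = 0.187). The monocyte homing genes Ccr2, a chemokine receptor, Cx3cr1, the fractalkine receptor, and the integrin chain Itgam differed by 0.09 to 0.27, and none passed. None of the 3 had an unadjusted p under 0.05 in the limma fit, and Ccr2 and Itgam were dim.

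Tlr2, the receptor for bacterial lipoproteins, had the widest spread of the 36 genes among knockout fed mice (SD 1.58). It gave 6.94, 4.39, 3.98 and 6.89 in knockout fed mice, against 4.03, 4.12, 4.10 and 4.13 in wild-type fed mice. Knockout mice 1 and 4 were high, and mice 2 and 3 lay near the wild-type level. The difference of 1.45 ± 0.49 did not pass (adjusted p = 0.193) and was 0.09 without mice 1 and 4. These were the mice with the highest acute phase means, and the part of that response in the Tlr2 value was not tested. Tyrobp and Spi1 were also highest in mice 1 and 4 among knockout fed mice. Their differences were 0.03 and 0.14 without these mice. Tlr4, the endotoxin receptor, and Tlr7, a receptor for viral RNA, differed by 0.11 ± 0.13 and 0.24 ± 0.11.

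Without knockout fed mice 1 and 4, 5 of the 36 still passed: Clec4f (0.89, adjusted p = 0.0219), Mpeg1 (1.55, 0.0238), Fcgr1 (1.01, 0.0103), Cybb (0.99, 0.0407) and Cd53 (0.96, 0.0281). The median of the 36 was then 0.44, and 32 values were positive. Over all 19935 genes 51 passed in that fit, in either direction. Leaving out single mice gave 5 to 12 calls, with 5 without wild-type fed mouse 3 and 6 without wild-type fed mouse 1 or knockout fed mouse 4. Ctsc and Folr2 sat near the threshold and passed in 3 and 5 of the 16 single omissions, with adjusted p up to 0.125 and 0.130. C1qb was lost without wild-type fed mouse 1 or 3 or knockout fed mouse 1 or 4 (adjusted p at most 0.067), Cybb without wild-type fed mouse 1, 2 or 3 or knockout fed mouse 4 (at most 0.0616) and Cd53 without wild-type fed mouse 3 (0.056). Cd5l and Laptm5 were lost only when mice 1 and 4 were left out together (0.0605 and 0.0649).

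**Figure D2:**
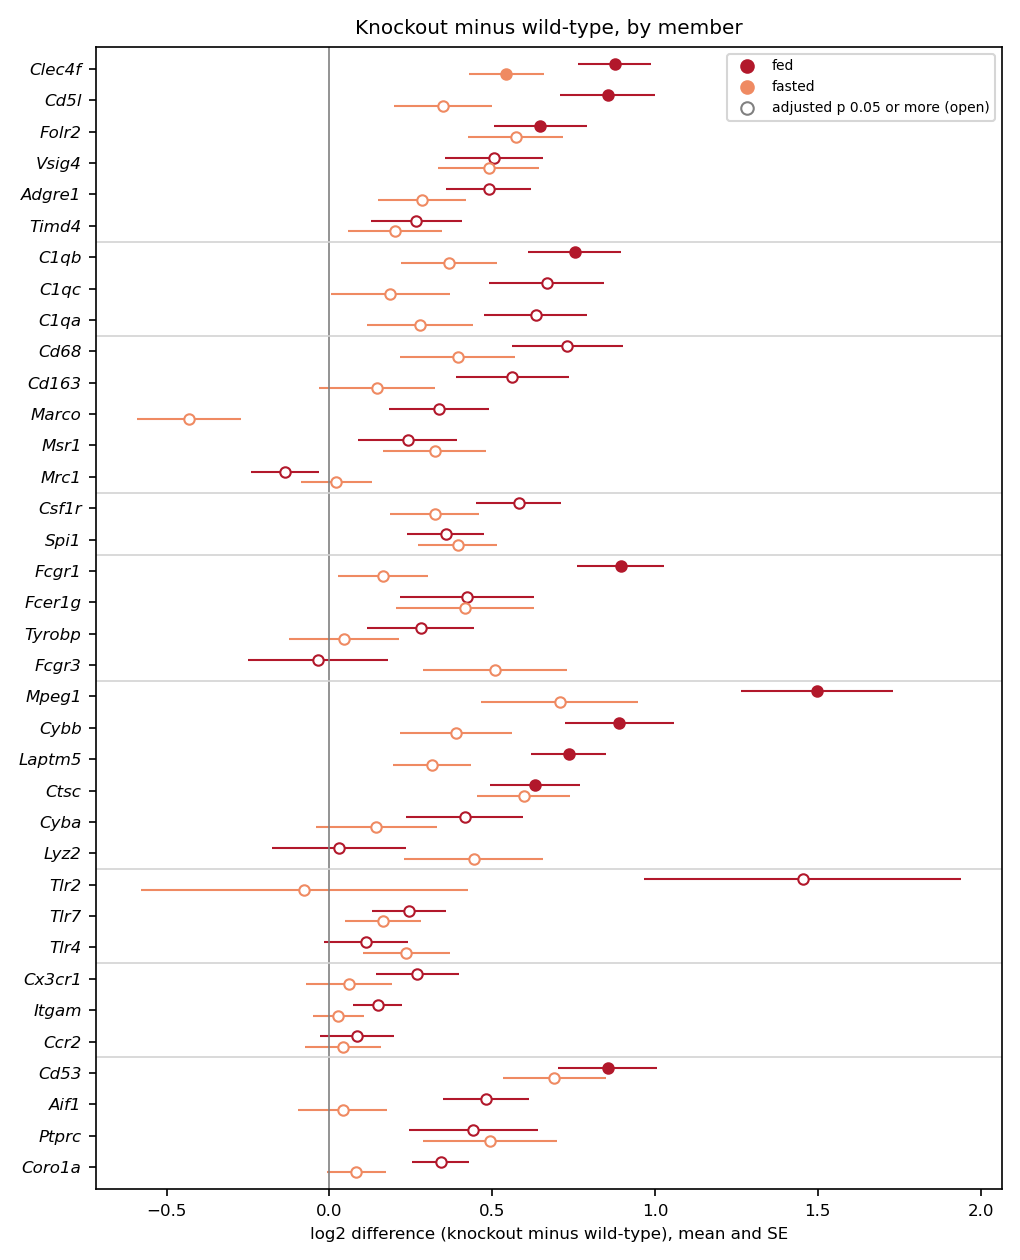
Knockout minus wild-type log2 difference (x axis, point and SE bar) of the 36 genes, grouped by role down the y axis, in fed mice (red) and fasted mice (orange), with filled points where the adjusted p was under 0.05. In fed mice 34 of 36 points lie right of zero and 10 are filled, and in fasted mice 34 lie right of zero and 1 is filled.

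The second comparison set the same genotypes side by side after a fast of 24 h. Of the 36 genes 1 rose (2.8%), beside 0.351% of all genes, and none fell, beside 0.186% of all genes. That gene was Clec4f, at 7.41, 7.57 and 7.69 in knockout fasted mice, against 6.95, 7.25, 7.19, 6.74 and 6.94 in wild-type fasted mice. The groups did not overlap, and the difference was 0.54 ± 0.12 (1.46-fold, adjusted p = 0.0474). The difference was positive for 34 of 36 genes, with a median of 0.30, against -0.02 over all genes. At an unadjusted p under 0.05 in the limma fit, 15 were higher and 1, Marco, was lower. The Clec4f call passed in 5 of 16 single omissions (adjusted p up to 0.246) and was lost without knockout fed mice 1 and 4 together (0.0628), when Cd53 passed in its place. The count became 0 without wild-type fed mouse 3 or 4, wild-type fasted mouse 1, 4 or 5, knockout fed mouse 3 or 4 or knockout fasted mouse 2 or 3, and 3 without wild-type fasted mouse 3.

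Groups did not overlap in 5 of the 36 after fasting (13.9%), beside 3.81% of all genes. They were Clec4f, Folr2, Ctsc, Spi1 and Cd53. Cd53 gave 5.28, 5.97 and 6.01 in knockout fasted mice, against 4.98, 5.00, 5.18, 4.93 and 5.22 in wild-type fasted mice (0.69 ± 0.16, adjusted p = 0.0600), with knockout mouse 1 just above the wild-type range. Ctsc gave 8.35, 8.43 and 8.34 in knockout fasted mice, against 7.64, 7.97, 8.18, 7.58 and 7.51 in wild-type fasted mice (0.60 ± 0.14, adjusted p = 0.0787). Folr2 gave 5.46, 5.29 and 5.37 in knockout fasted mice, against 4.81, 5.09, 5.19, 4.44 and 4.47 in wild-type fasted mice (0.57 ± 0.15, adjusted p = 0.104). Among wild-type fasted mice, mouse 3 was the highest for Ctsc and Folr2, and mouse 4 or 5 the lowest for each of the 3. Spi1 gave 3.35, 3.58 and 3.51 in knockout fasted mice, against 3.16, 3.16, 3.08, 3.05 and 2.98 in wild-type fasted mice (0.39 ± 0.12, adjusted p = 0.221).

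Several genes that rose in fed knockout mice overlapped between genotypes after fasting. Mpeg1 gave 6.47, 7.00 and 7.11 in knockout fasted mice, against 6.02, 6.10, 6.82, 5.68 and 6.15 in wild-type fasted mice (0.71 ± 0.24, adjusted p = 0.287). Fcgr1 gave 3.40, 3.37 and 3.30 in knockout fasted mice, against 3.26, 3.40, 3.00, 3.01 and 3.29 in wild-type fasted mice (0.16 ± 0.14, adjusted p = 0.747). Cd5l gave 6.95, 7.00 and 7.29 in knockout fasted mice, against 6.67, 6.88, 7.21, 6.36 and 6.54 in wild-type fasted mice (0.35 ± 0.15, adjusted p = 0.438). Wild-type fasted mouse 3 was the highest of its group for Mpeg1 and Cd5l and the lowest for Fcgr1. Marco had the lowest difference, with 2.54, 2.70 and 2.94 in knockout fasted mice, against 3.17, 2.92, 3.28, 3.11 and 3.30 in wild-type fasted mice (-0.43 ± 0.16, adjusted p = 0.343), the opposite sign to its fed value.

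Of the resident markers that stood apart in fed mice, Vsig4 kept the largest fasted difference after Clec4f and Folr2. It gave 7.19, 7.30 and 7.59 in knockout fasted mice, against 6.90, 6.96, 7.32, 6.44 and 6.74 in wild-type fasted mice (0.49 ± 0.16, adjusted p = 0.228). C1qb gave 6.42, 6.70 and 6.70 in knockout fasted mice, against 6.34, 6.34, 6.52, 5.63 and 6.36 in wild-type fasted mice (0.37 ± 0.15, adjusted p = 0.389). Adgre1 gave 5.48, 5.53 and 5.71 in knockout fasted mice, against 5.10, 5.57, 5.69, 4.95 and 5.13 in wild-type fasted mice (0.28 ± 0.14, adjusted p = 0.490). In these 3 genes wild-type fasted mouse 3 reached into the knockout range and mouse 4 was the lowest. Timd4 gave 5.46, 5.39 and 5.41 in knockout fasted mice, against 4.84, 5.37, 5.61, 4.93 and 5.34 in wild-type fasted mice (0.20 ± 0.14, adjusted p = 0.688), with the knockout mice inside the wild-type range.

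The general genes Cybb, Laptm5, Csf1r and Cd68 also overlapped after fasting. Cybb gave 5.99, 6.58 and 6.67 in knockout fasted mice, against 5.81, 6.17, 6.40, 5.89 and 5.84 in wild-type fasted mice (0.39 ± 0.17, adjusted p = 0.441). Laptm5 gave 6.05, 6.02 and 5.87 in knockout fasted mice, against 5.67, 5.70, 5.94, 5.43 and 5.58 in wild-type fasted mice (0.32 ± 0.12, adjusted p = 0.357). For both, a single knockout mouse lay at or below wild-type fasted mouse 3. Csf1r gave 6.75, 6.74 and 6.84 in knockout fasted mice, against 6.49, 6.73, 6.78, 6.16 and 6.12 in wild-type fasted mice (0.32 ± 0.14, adjusted p = 0.420). Cd68 gave 5.07, 4.96 and 5.39 in knockout fasted mice, against 5.11, 4.91, 4.96, 4.26 and 4.48 in wild-type fasted mice (0.39 ± 0.18, adjusted p = 0.452). Wild-type fasted mice 4 and 5 were the lowest for Csf1r and Cd68. Fcgr3 and Lyz2, which were near the wild-type level in fed mice, differed by 0.51 ± 0.22 and 0.44 ± 0.21 after fasting (adjusted p = 0.441 and 0.496).

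The wild-type fasted mice spread most. Over the 36 genes, mouse 3 had the highest value of its group of 5 in 25 and mouse 4 the lowest in 18. The mean of the 11 resident markers, each centred on its own mean over all arrays, ran from 0.38 to 0.47 in knockout fed mice and -0.23 to -0.07 in wild-type fed mice. It ran from -0.02 to 0.16 in knockout fasted mice and -0.58 to 0.08 in wild-type fasted mice. The fed groups were clear of each other, and the fasted groups overlapped. The mean of the 25 general genes was 0.24 to 0.54 in knockout fed mice, -0.19 to -0.05 in wild-type fed mice, -0.03 to 0.11 in knockout fasted mice and -0.44 to 0.01 in wild-type fasted mice, the same layout.

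**Figure D3:**
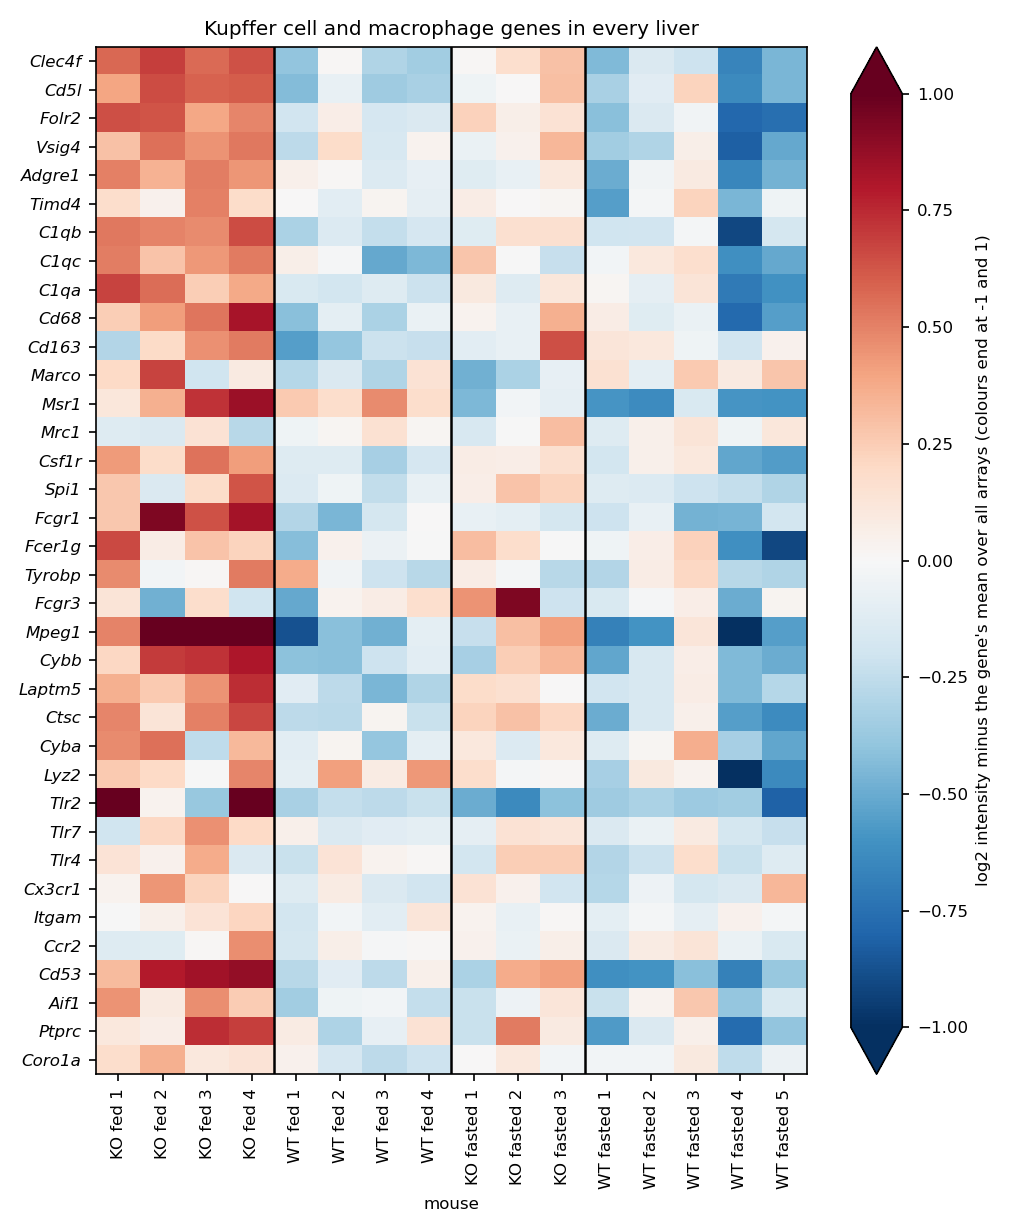
Log2 intensity of each of the 36 genes (rows, by role), centred on the mean of that gene over the 16 arrays, for every mouse (columns, in the order knockout fed, wild-type fed, knockout fasted, wild-type fasted), on a scale whose colours end at -1 and 1. The knockout fed block is red in nearly every row, and within the wild-type fasted block mouse 3 is redder and mouse 4 bluer than the others.

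Averaged over fed and fasted mice, the knockout effect was positive for 34 of 36 genes, and 14 rose (38.9%), beside 0.963% of all genes. None fell, beside 0.587% of all genes, and at an unadjusted p under 0.05 in the limma fit 26 were higher and 0 lower. Clec4f had the smallest adjusted p, with a mean effect of 0.71 ± 0.08 (adjusted p = 0.000347), and Mpeg1 the largest size, 1.10 ± 0.17 (adjusted p = 0.00231). The 10 genes of the fed comparison all passed, and Cd68 (0.56 ± 0.12, adjusted p = 0.0272), Vsig4 (0.50 ± 0.11, 0.0268), Csf1r (0.45 ± 0.09, 0.0212) and Spi1 (0.38 ± 0.09, 0.0336) joined them. Those 4 passed in 11, 11, 14 and 7 of 16 single omissions, and without knockout fasted mouse 3 all 4 were lost (adjusted p = 0.103, 0.100, 0.0722 and 0.0988). The fed difference is part of this mean, so these results are not independent of the fed comparison. In fasted mice alone only Clec4f passed. Without knockout fed mice 1 and 4 together, 9 of the 36 passed, beside 171 of all 19935 genes.

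Resident Kupffer markers and general myeloid genes were compared by their counts, and the difference between the classes was not tested. In fed mice 4 of 11 resident markers and 6 of 25 general genes rose, beside 0.451% of all genes, with medians of 0.63 and 0.42. All 11 resident markers and 23 of 25 general genes were positive. After fasting the medians were 0.28 for resident markers and 0.32 for general genes. Of these, 1 of 11 and 0 of 25 rose, beside 0.351% of all genes. In the mean over both states 5 of 11 and 9 of 25 rose, beside 0.963% of all genes, with medians of 0.46 and 0.28. Without knockout fed mice 1 and 4, 1 of 11 resident markers and 4 of 25 general genes rose in fed mice, with medians of 0.59 and 0.38. In the mean effect 3 of 11 and 6 of 25 then rose. Over all 19935 genes, 51 passed in fed mice and 171 in the mean effect without these mice, in either direction.

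With fasting in wild-type mice few of these genes differed. Of the 36, 1 fell (2.8%), beside 5.92% of all genes, and none rose, beside 3.30% of all genes. At an unadjusted p under 0.05 in the limma fit 6 were lower and 1, Cd163, was higher. Msr1 was the gene that fell, at 4.75, 4.71, 5.19, 4.74 and 4.74 in wild-type fasted mice, against 5.60, 5.51, 5.81 and 5.51 in wild-type fed mice. The groups did not overlap (-0.78 ± 0.14, adjusted p = 0.00212), and the call held in all 25 alternatives tried. Lyz2 had the next largest value, at 6.40, 6.83, 6.77, 5.64 and 6.10 in wild-type fasted mice, against 6.63, 7.14, 6.82 and 7.17 in wild-type fed mice (-0.59 ± 0.20, adjusted p = 0.0707). The median of the 36 was -0.07, against 0.03 over all genes, and the count became 5 without wild-type fasted mouse 3 and 2 without wild-type fasted mouse 2 or knockout fasted mouse 1.

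In knockout mice 34 of 36 genes were lower after fasting, with a median of -0.33, against -0.02 over all genes. Of the 36, 3 fell (8.3%), beside 1.80% of all genes. None rose, beside 1.87% of all genes, and at an unadjusted p under 0.05 in the limma fit 18 were lower and 0 higher. Fcgr1 gave 3.40, 3.37 and 3.30 in knockout fasted mice, against 3.74, 4.40, 4.11 and 4.30 in knockout fed mice (-0.78 ± 0.15, adjusted p = 0.00571). Msr1 gave 4.89, 5.31 and 5.25 in knockout fasted mice, against 5.45, 5.69, 6.06 and 6.19 in knockout fed mice (-0.70 ± 0.16, adjusted p = 0.0233). Clec4f, with its values given above, differed by -0.46 ± 0.12 (adjusted p = 0.0440). For each of the 3, every knockout fasted mouse lay below every knockout fed mouse. The same held for 14 of the 36 (38.9%), among them Adgre1, Cd5l, Folr2, Csf1r, Mpeg1, Laptm5 and all 3 C1q genes, and for 7.05% of all genes.

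The knockout fed mice enter both this comparison and the genotype comparison in fed mice, so the results are not independent. Without mice 1 and 4, 2 of the 36 fell, beside 218 of all 19935 genes that passed in either direction. The value was then negative for 32 of the 36, with a median of -0.30. Single omissions gave 1 call without knockout fed mouse 4 or knockout fasted mouse 1 or 3, 5 without wild-type fasted mouse 4 and 6 without wild-type fasted mouse 3. The Clec4f call passed in 5 of 16 single omissions (adjusted p up to 0.192). Msr1 was lost without knockout fed mouse 4 (adjusted p = 0.0703), knockout fasted mouse 1 (0.127) or knockout fasted mouse 3 (0.0589), and Fcgr1 passed in all 25 alternatives.

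**Figure D4:**
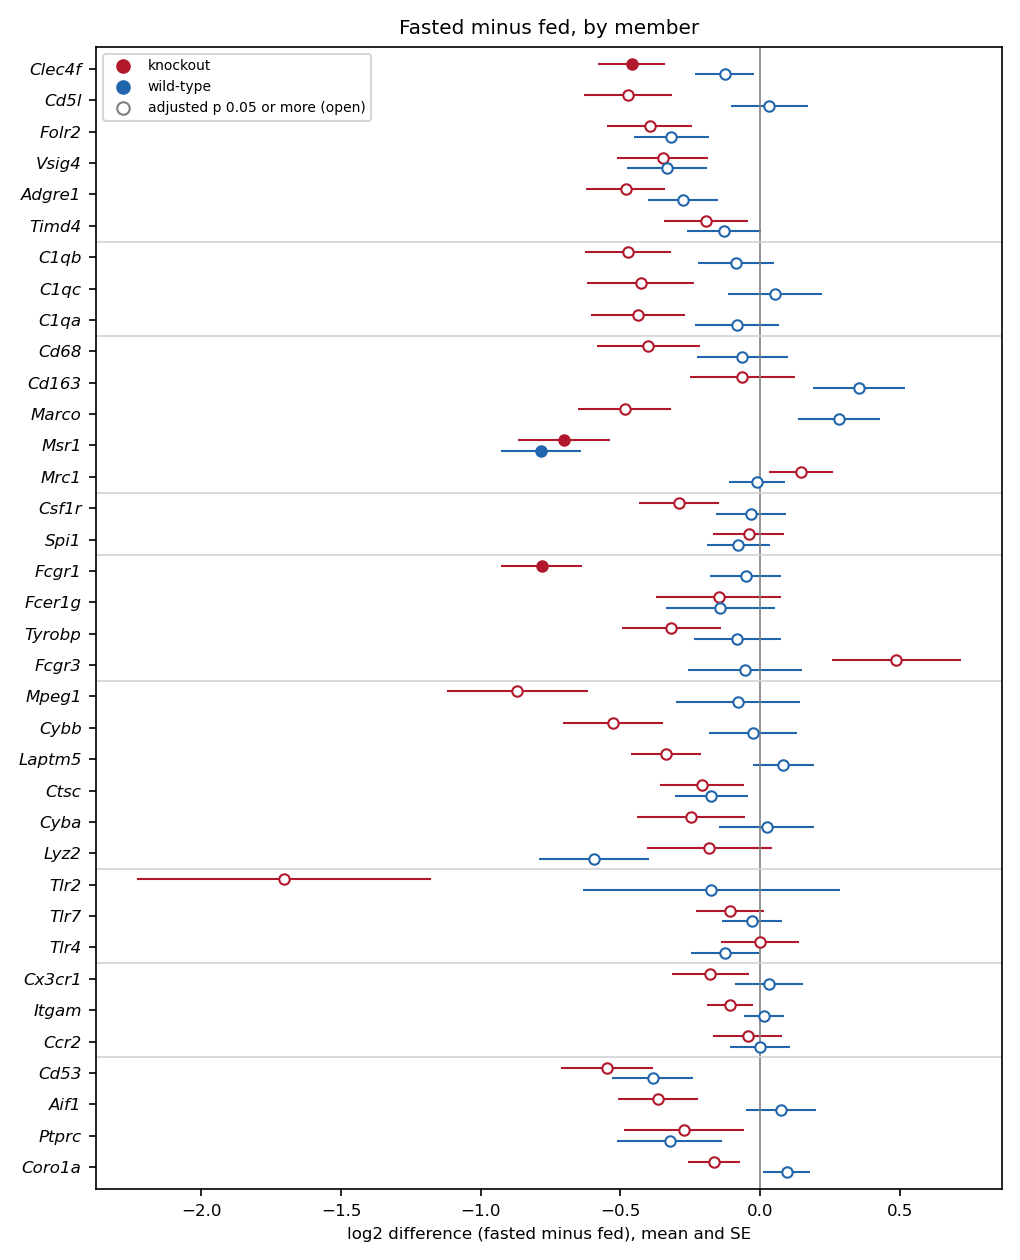
Fasted minus fed log2 difference (x axis, point and SE bar) of the 36 genes, grouped by role down the y axis, in knockout mice (red) and wild-type mice (blue), with filled points where the adjusted p was under 0.05. In knockout mice 34 of 36 points lie left of zero and 3 are filled, and in wild-type mice 26 lie left of zero and only Msr1 is filled.

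Whether fasting acted differently in the genotypes was tested directly as the interaction, and no member passed, beside 0.0100% of all genes. At an unadjusted p under 0.05 in the limma fit 7 were negative and 0 positive, and the lowest adjusted p was 0.204. The value was negative for 29 of the 36 and for all 11 resident markers, with medians of -0.35 for resident markers and -0.16 for general genes. In group means, knockout fed mice were highest in 34 of the 36 genes, the exceptions being Fcgr3 and Mrc1, where knockout fasted mice were highest. Wild-type fasted mice had the lowest mean in 24 and wild-type fed mice in 9.

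Other genes known to be rich in Kupffer cells were read in the same fed mice, as a list also chosen with earlier results known. Of 23 measured, 11 rose in the knockout, beside 0.451% of all genes, and none fell, beside 0.226%. In 14 of the 23 every knockout fed mouse lay above every wild-type fed mouse, as in 3.53% of all genes. Ly86, which encodes a partner of a Toll-like receptor homologue on immune cells, gave 5.33, 5.27, 5.18 and 5.51 in knockout fed mice, against 3.91, 4.49, 4.16 and 4.16 in wild-type fed mice (1.14 ± 0.15, adjusted p = 0.00208). It was also higher after fasting, at 4.90, 4.79 and 5.10 in knockout fasted mice, against 3.76, 4.39, 4.10, 3.91 and 3.56 in wild-type fasted mice (0.99 ± 0.16, adjusted p = 0.00911). Neither pair of groups overlapped. Siglec1, the sialic acid receptor sialoadhesin, rose by 0.91 ± 0.13 in fed mice (adjusted p = 0.00362), and Itgb2, the beta chain of leukocyte integrins, by 0.87 ± 0.11 (adjusted p = 0.00208). Hmox1, the haem-degrading enzyme haem oxygenase, rose by 1.29 ± 0.27 (adjusted p = 0.0389), with 7.12, 5.58, 6.31 and 7.07 in knockout fed mice, highest in mice 1 and 4, against 5.27, 5.13, 5.09 and 5.41 in wild-type fed mice. Without mice 1 and 4, 4 of the 23 rose, and 51 of all 19935 genes passed in that fit.

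Genes of macrophage activation were read as lists of their own, in which 8 of 15 genes of alternative and 14 of 25 genes of inflammatory activation were dim, against 2 of the 23 Kupffer-rich genes. Beside 0.451% of all genes, 2 of 15 genes of alternative activation rose in knockout fed mice. They were Clec7a, a receptor for fungal glucans (0.55 ± 0.11, adjusted p = 0.0247), and the chemokine Ccl24 (0.52 ± 0.08, adjusted p = 0.00486). Of 25 genes of inflammatory activation, 1 rose, the costimulatory ligand Cd86 (0.55 ± 0.10, adjusted p = 0.0119), which is also counted among the 11 Kupffer-rich genes that rose. When knockout fed mice 1 and 4 were left out, 1 of 15 and 0 of 25 rose in the limma fit. The mean of the alternative list was 0.02 to 0.08 in knockout fed mice, against -0.11 to 0.01 in wild-type fed mice. The mean of the inflammatory list was 0.01 to 0.81 in knockout fed mice, highest in mouse 1, against -0.12 to -0.08 in wild-type fed mice. In neither list did the fed genotypes overlap. Of 21 transcription factors and niche signals of Kupffer cells, none passed in fed mice in the limma fit, 6 had an unadjusted p under 0.05, and their median difference was 0.01. With fasting, Bmp2, a signalling protein of the TGF-beta family, rose by 0.64 ± 0.15 in knockout mice (adjusted p = 0.0252), and the interferon regulatory factor Irf5 fell by 0.47 ± 0.12 in knockout mice (adjusted p = 0.0298) and by 0.59 ± 0.10 in wild-type mice (adjusted p = 0.00136). In knockout mice without fed mice 1 and 4, 1 gene of this list rose and 0 fell with fasting.

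In the other lists, 0 of 23 Kupffer-rich genes fell with fasting in knockout mice when fed mice 1 and 4 were left out. With all mice 5 of 23 fell, beside 1.80% of all genes. By size they were led by the heparan sulphate proteoglycan Sdc3 (-0.71 ± 0.14, adjusted p = 0.00924), the sialic acid receptor Siglec1 (-0.61 ± 0.14, adjusted p = 0.0205), Cd86 (-0.52 ± 0.10, adjusted p = 0.00915) and the integrin chain Itgb2 (-0.51 ± 0.12, adjusted p = 0.0278). Ccl24 fell as well (-0.32 ± 0.08, adjusted p = 0.0405), and 0 of the 15 genes of alternative activation fell without knockout fed mice 1 and 4. In wild-type mice, 1 of 23 Kupffer-rich genes rose with fasting (beside 3.30% of all genes), the receptor for dying cells Mertk (0.42 ± 0.11, adjusted p = 0.0273). Arg1, the urea cycle enzyme arginase that hepatocytes also make, rose by 0.40 ± 0.09 (adjusted p = 0.0107), and the cytokine Il18 fell by 0.51 ± 0.16 (adjusted p = 0.0477).

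Markers of other cell types were read beside the fed result. All 12 neutrophil markers measured were dim, and their mean was -0.05 to 0.16 in knockout fed mice, against -0.10 to 0.03 in wild-type fed mice. Of 8 monocyte markers 5 were dim, with a mean of 0.03 to 0.31 in knockout fed mice, against -0.16 to 0.30 in wild-type fed mice. Of 10 T and NK cell markers 8 were dim, as were 5 of 6 B cell and 5 of 8 dendritic cell markers. The dendritic cell mean was -0.03 to 0.05 in knockout fed mice, against -0.13 to -0.05 in wild-type fed mice, without overlap. The T and NK cell mean was -0.06 to 0.09 in knockout fed mice, against -0.10 to -0.03 in wild-type fed mice. The B cell mean was -0.05 to 0.18 in knockout fed mice, against -0.11 to 0.02 in wild-type fed mice, so these overlapped. The 11 markers of stellate cells gave -0.12 to 0.09 in knockout fed mice, against -0.14 to 0.80 in wild-type fed mice, where mouse 4 had the 0.80. The 12 markers of sinusoidal endothelium were all above the dim level and gave -0.22 to 0.18 in knockout fed mice, against -0.02 to 0.17 in wild-type fed mice. No gene of these lists, or of the acute phase list, passed between genotypes in fed mice in the limma fit. At an unadjusted p under 0.05 there were 3 endothelial, 1 stellate, 2 neutrophil, 1 monocyte, 1 T and NK cell, 0 B cell, 0 dendritic cell and 9 acute phase genes, and all 18 acute phase genes were higher. After fasting, the median knockout difference was 0.25 for stellate (9 of 11 positive), 0.10 for endothelial (10 of 12 positive) and 0.16 for monocyte markers. It was 0.30 for the 36 genes and between -0.05 and 0.02 for neutrophil, dendritic, T and NK, and B cell markers. Every knockout fasted mouse lay above every wild-type fasted mouse in 3 of 12 endothelial, 2 of 11 stellate and 2 of 6 B cell markers. The same held for 3.81% of all genes. The reverse order was found for 1 stellate and 1 neutrophil marker, and no gene of these lists passed. The part of any of these cells, or of the acute phase response, in the result was not tested.

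**Figure D5:**
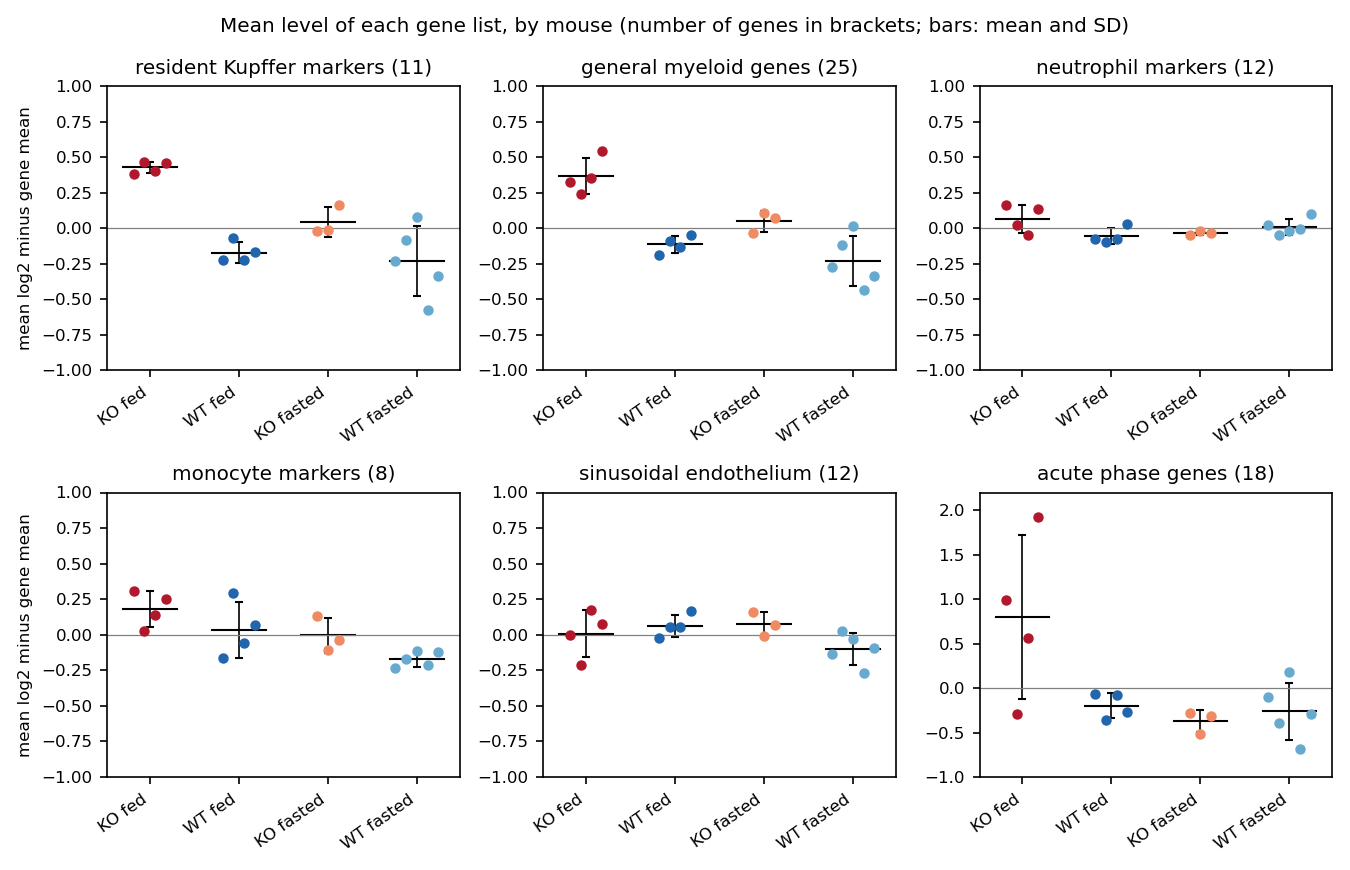
Mean over the genes of each list of the log2 intensity minus the gene's mean over all arrays (y axis), 1 point per mouse in the 4 groups (x axis), with lines at the group mean and bars of 1 SD, and a taller y axis for acute phase genes. The resident and general lists are highest in all 4 knockout fed mice, whereas the neutrophil, monocyte and endothelial lists overlap between fed genotypes and the acute phase list is high in knockout fed mice 1, 3 and 4.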

How the data were processed

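The authors deposited probe set intensities on a linear scale, summarised and normalized with RMA per the submitters' processing notes; no version is given there. Array medians of intensity lay between 8.08 and 8.61, and log2 of the deposited values was taken here. Of 35519 probe sets, 21780 had 1 gene symbol in the annotation used, and the probe set with the highest mean stood for each of 19935 genes.

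All 16 arrays entered 1 limma 3.58.1 fit in R 4.3.3 (lmFit and eBayes, 4 group means, 12 residual and 4.55 prior degrees of freedom). Tests were two-sided, with p adjusted by Benjamini-Hochberg over all genes within a contrast, and a threshold of 0.05. Precision is limited by the number of arrays. On simulated arrays of 19935 genes, the fed knockout contrast recovered 68% of genes changed by 0.5 on the log2 scale and 97% of those changed by 1. The interaction recovered 18% and 92%. The changed genes were drawn at random from all genes, with independent normal noise in each. These shares are therefore not the recovery for the 36 genes on the real arrays. The knockout fasted group has 3 arrays, although the series text speaks of 4 to 5 mice in a group. The labels call the replicates biological replicates.

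The members and the other gene lists were chosen with earlier results of these data known. Every member could be named; per-array values are given for members that passed in any contrast, for Adgre1, Timd4 and Marco, and, chosen after their values were seen, for Tlr2 and Lyz2. Of the other lists, at most 4 genes that passed per list and contrast are named, by size. The labels do not say that a replicate number is shared between groups, and no pairing was used in the main fit. Same-numbered arrays correlated at -0.253 to 0.231 over 21 pairs in their deviations from group means, with a median of 0.074. Arrays of different number gave -0.341 to 0.29 over 74 pairs, with a median of -0.042. Whether the numbers pair the samples was not tested. Motifs were searched in RefSeq promoters of GRCm38.p6. Alternatives were quantile normalization, centring arrays on 1 median, dropping dim genes, taking the median over probe sets of a gene, robust variance with an intensity trend, weighting arrays, a replicate block, a fit of the compared groups alone, and leaving out arrays.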

Additional observations from a re-analysis of the deposited data

Results flagged for a closer look

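The 36 measured genes were examined for single distant mice in every group except knockout fasted, which has 3 arrays. In 5 of these 108 sets of replicates (4.63%), 1 mouse lay far from the others of its group. Chance alone flags about 1 in 20 such groups. Cd53 was 5.91 in knockout fed mouse 1, below the 6.39 to 6.47 of the other knockout fed mice. Ctsc was 8.16 in wild-type fed mouse 3, above the 7.86 to 7.91 of the other wild-type fed mice. C1qb was 5.63 in wild-type fasted mouse 4, below the 6.34 to 6.52 of its group. Msr1 was 5.19 in wild-type fasted mouse 3, above the 4.71 to 4.75 of its group. Tlr2 was 3.55 in wild-type fasted mouse 5, below the 4.00 to 4.05 of its group.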

How the results depend on the processing

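Of the 2664 recomputed values for the 18 named genes, 56 had the opposite sign, all for 16 differences, the largest 0.16 in size, that passed neither as reported nor with the sign changed (lowest adjusted p 0.607). No difference that passed reversed. With single mice left out, these ran for fasting in wild-type mice from -0.156 to 0.0668 for C1qb, -0.0864 to 0.127 for Cd5l, -0.155 to 0.0581 for Cd68, -0.112 to 0.0527 for Csf1r, -0.119 to 0.0361 for Cybb, -0.128 to 0.0268 for Fcgr1 and -0.244 to 0.045 for Mpeg1; for the interaction from -0.294 to 0.0724 for Cd53, -0.140 to 0.0672 for Ctsc, -0.166 to 0.0217 for Folr2, -0.0502 to 0.213 for Msr1, -0.0899 to 0.167 for Spi1, -0.160 to 0.0329 for Timd4 and -0.130 to 0.0961 for Vsig4; from -0.167 to 0.0902 for Spi1 with fasting in knockout mice and from -0.128 to 0.0185 for Marco in the mean effect. For fasting in wild-type mice, quantile normalization turned Csf1r to 0.0433, Mpeg1 to 0.0073 and Cybb to 0.0559, array weights turned Csf1r to 0.0388 and Cybb to 0.0173, and the replicate block turned Cd68 to 0.0025, Csf1r to 0.0527 and Cybb to 0.0221. Spi1 with fasting in knockout mice became 0.0184 with quantile normalization, 0.0001 with centred arrays, 0.0022 with the replicate block and 0.17 without knockout fed mice 1 and 4. The interaction became 0.0591 for Vsig4, 0.0093 for Timd4 and 0.0398 for Ctsc with centred arrays, 0.0959 for Ctsc without knockout fed mice 1 and 4, -0.0038 for Msr1 with quantile normalization and -0.0171 for Spi1 with array weights. Of the other values, 2449 kept both sign and side of the threshold, 106 lost the call and 53 gained one. Clec4f, Mpeg1 and Fcgr1 in knockout fed mice, Msr1 with fasting in wild-type mice, Fcgr1 with fasting in knockout mice and 9 of 14 genes in the mean knockout effect passed under every alternative. The number of members that passed in knockout fed mice, 10 as reported, was 5 to 12 with single mice left out, 5 without knockout fed mice 1 and 4 and up to 15 with quantile normalization. In knockout fasted mice the count of 1 became 0 with quantile normalization or with the compared groups alone, and 2 with centred arrays, without dim genes, with an intensity trend and robust variance or with array weights, and was 0 to 3 with single mice left out. For fasting in wild-type mice the count of 1 became 2 without dim genes and 3 with the compared groups alone, and was 1 to 5 with single mice left out. For fasting in knockout mice the count of 3 became 1 with centred arrays, and was 1 to 6 with single mice left out. The interaction called 0 members under all of them. The mean knockout effect, 14 as reported, called 9 without knockout fed mice 1 and 4 and 10 to 15 with single mice left out. With the replicate number as a block, which the labels do not call a pairing, fasting in wild-type mice called 2 members and knockout fed 12. Knockout fasted called 1, fasting knockout 4 and the mean knockout effect 11. Counts over all genes with single mice left out ran from 59 to 274 for knockout fed (135 as reported), 21 to 126 for knockout fasted (107), 1199 to 2006 for fasting in wild-type (1838), 330 to 951 for fasting in knockout (732), 0 to 8 for the interaction (2) and 175 to 359 for the mean effect (309). Without knockout fed mice 1 and 4 they were 51 for knockout fed, 218 for fasting in knockout and 171 for the mean effect. The causes of these changes were not tested.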

Other observations

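Among markers of other liver cells, the mean knockout effect passed for Lyve1, a hyaluronan receptor of endothelium that some macrophages also make (0.53 ± 0.12, adjusted p = 0.0316), and for Rgs5, a regulator of G protein signalling in pericytes (-0.35 ± 0.08, adjusted p = 0.0269). Without knockout fed mice 1 and 4, 0 of 12 endothelial markers rose and 0 of 11 stellate cell markers fell in the limma fit of this effect, so that neither gene passed. Fcgr4, a related mouse Fc receptor gene, gave 4.62, 4.23, 4.40 and 4.20 in knockout fed mice, against 3.55, 3.55, 3.79 and 3.62 in wild-type fed mice. It was chosen after its values were seen, and related Fc receptor genes could share probe signal.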
